A study of Canis lupus familiaris with 18 samples.

Results

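The right atrium after 5 weeks of rapid ventricular pacing was compared with the right atrium of control dogs. The comparison concerns 6 of the 18 arrays in the study, namely the 3 arrays titled RA HF at 5 weeks and the 3 arrays of control RA, where RA is the right atrium and HF is heart failure. The main values come from replicates 1 and 2 at 5 weeks against the 3 controls. Replicate 3 carried ventricular levels of the myosin light chains MYL2 and MYL3 and of the transcription factor IRX5, and its values stand beside the others without entering the tests. The study asked how the transcriptome of the RA and the right ventricle (RV) changes as heart failure advances and what accompanies the tendency to arrhythmia. The paced groups had a pacemaker driving the ventricle continuously (ventricular tachypacing), for 2 weeks in the early stage and 5 weeks in the late stage, and the protocol text gives 2 to 3 and 5 to 6 weeks. All animals were adult mongrel or beagle dogs without further treatment or genotype in the labels, and the breed and the age in years of each are not stated. Each chamber gave 3 arrays per stage, from a small piece of frozen tissue. The replicates are labelled biological but no dog is identified, so a p-value here describes variation among these tissue samples, which may be partly technical.

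The atrium in heart failure is stretched by raised filling pressure, and its tissue is known to gain extracellular matrix and immune cells. Fibroblasts make the collagens and the matricellular proteins of that matrix. Macrophages and other myeloid cells take up debris, secrete chemokines and complement, and show peptides to T cells on class II molecules of the major histocompatibility complex, called dog leukocyte antigens (DLA) in this species. Atrial myocytes use their own myosin light chains, and their calcium release and potassium currents set the length and regularity of the beat. In pieces of whole tissue, fewer cells of a type and less RNA per cell cannot be told apart.

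The chamber markers of the arrays were examined first. Signal of MYL2, the ventricular regulatory light chain, was 6.51, 6.04 and 9.38 in the RA controls, 10.99 and 10.59 in 5-week replicates 1 and 2, and 14.17 in replicate 3, on the log2 scale used throughout. The RV controls lay at 14.13, 14.17 and 14.16, so replicate 3 stood at the ventricular level and the other 5-week arrays between the chambers. Signal of MYL3, the ventricular essential light chain, was 7.59, 7.91 and 7.97 in RA controls, 9.22 and 8.81 in replicates 1 and 2, and 13.89 in replicate 3. The transcription factor IRX5 read 5.02, 5.22 and 5.24 in controls, 4.99 and 5.62 in replicates 1 and 2, and 8.10 in replicate 3. The atrial genes told the same arrays apart. MYL4, the atrial essential light chain, read 13.89 and 14.05 in replicates 1 and 2 against 13.98 to 14.03 in controls, and 11.65 in replicate 3. DKK3, a secreted modulator of Wnt signalling, read 12.05 and 12.61 against 12.52 to 12.76 in controls, and 9.17 in replicate 3. The RV controls read 7.89 to 10.39 for MYL4 and 6.16 to 7.91 for DKK3, so replicate 3 lay between the chambers in both. Replicates 1 and 2 therefore lay near the RA controls in these atrial markers, with MYL2 and MYL3 above every RA control. Replicate 1 lay below every RA control for MYL4 and DKK3. It also did so for the atrial genes MYL7 (13.72 against 14.01 to 14.08), PAM (12.50 against 13.33 to 13.40) and CRYM (9.04 against 9.85 to 10.98). The library labelled RA 5 weeks replicate 3 went against its label in most of the markers. GJA5, the atrial gap junction gene, read 9.07 and 9.14 in replicates 1 and 2, within the RA controls at 8.94 to 9.21. It stayed near the RA level in replicate 3 too, at 8.74, with 6.47 to 7.08 in RV controls.

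**Figure D1:**
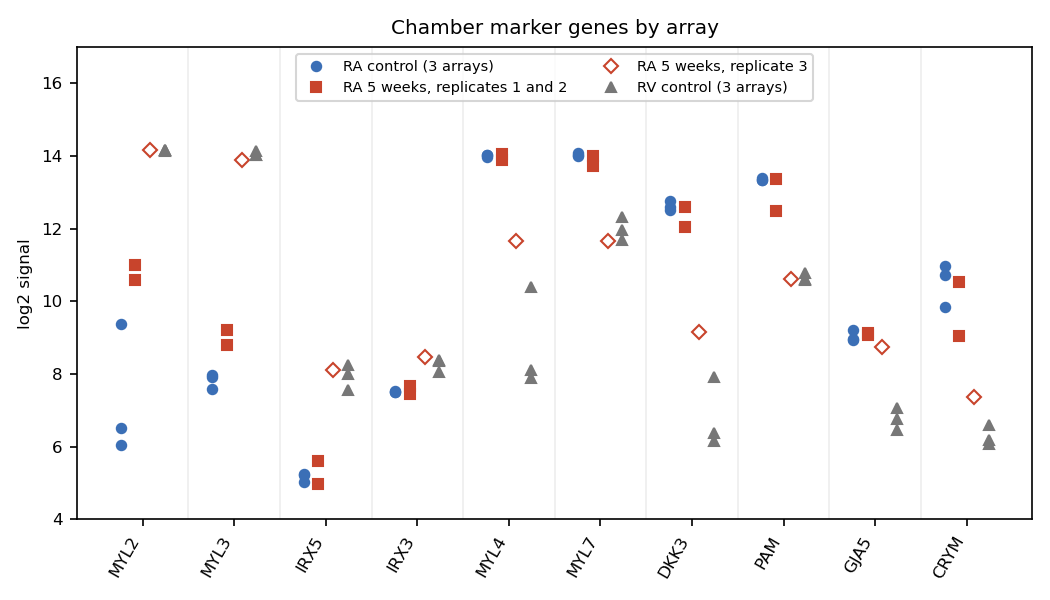
Log2 signal of 10 chamber marker genes (horizontal axis) on each RA control, RA 5-week and RV control array, 1 point per array. Replicate 3 at 5 weeks (open diamonds) lies at or near the RV controls for MYL2, MYL3 and IRX5, while replicates 1 and 2 lie near the RA controls for MYL4, MYL7 and DKK3.

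Over the 25752 probe sets past the signal filter, 5-week replicates 1 and 2 correlated at 0.974 with each other, and the controls at 0.983 to 0.986 among themselves. Replicates 1 and 2 correlated with the RA controls at 0.951 to 0.983, a range that starts below that of replicate 3. Replicate 3 correlated at 0.960 to 0.966 with the RA controls and at 0.981 to 0.988 with the RV controls. As a sign of RNA integrity, the 3' minus 5' signal of GAPDH was 1.51 and 1.29 in replicates 1 and 2 and 1.15 to 1.61 in controls. That of actin was 0.81 and 0.23, against 0.14 to 0.58, so replicate 1 lay above the controls by this measure. The part of RNA integrity in the results was not tested.

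In the RA at 5 weeks, genes of antigen presentation, myeloid cells, complement and the extracellular matrix were higher than in controls, and a smaller set that included the angiogenic factor VEGFA and the calcium release channel RYR2 was lower. Of 10988 genes tested with limma at an adjusted p of 0.05, 138 were called (1.26%), with 114 higher (1.04%) and 24 lower (0.218%). After quantile normalization the split was 101 higher and 49 lower, which lowered the higher share from 82.6% to 67.3%. Every called gene had both 5-week arrays outside the range of the 3 controls, a state found above the controls in 16.5% and below them in 15.6% of all genes tested. Changes of at least 2-fold were found in 49 of the genes called higher and in 1 called lower, the acyl-CoA synthetase gene ACSBG1. The median log2 difference was 0.92 over the genes called higher and -0.67 over those called lower.

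The 2 arrays did not contribute equally. In 109 of the 114 genes called higher, replicate 1 lay above replicate 2, and in 19 of the 24 called lower it lay below. Without replicate 1 the limma fit called 0 genes, with 449 at an unadjusted p under 0.05, and without replicate 2 it called 1257. Leaving out control 1, 2 or 3 gave 16, 48 or 29 calls, and adding replicate 3 gave 4. Of the 61 called genes that the naming rule took, none stayed called in all 5 fits with an array left out. Their sign could not change in these fits, since both 5-week arrays lay outside the range of the controls. CLEC12A, CTSS, CFI, THBS4, LYZ, DLA-DMA, DLA-DQA1 and DLA-DQB1, with the ribosome assembly gene NIP7, were called in 4 of the 5, all but the fit without 5-week replicate 1. Replicate 3 lay above all controls in 34, within them in 40 and below them in 40 of the genes called higher. Of the genes called lower it lay below all controls in 17, within them in 5 and above them in 2. Its shares over all genes were not counted, so these numbers are not read as a repeat of the calls.

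**Figure D2:**
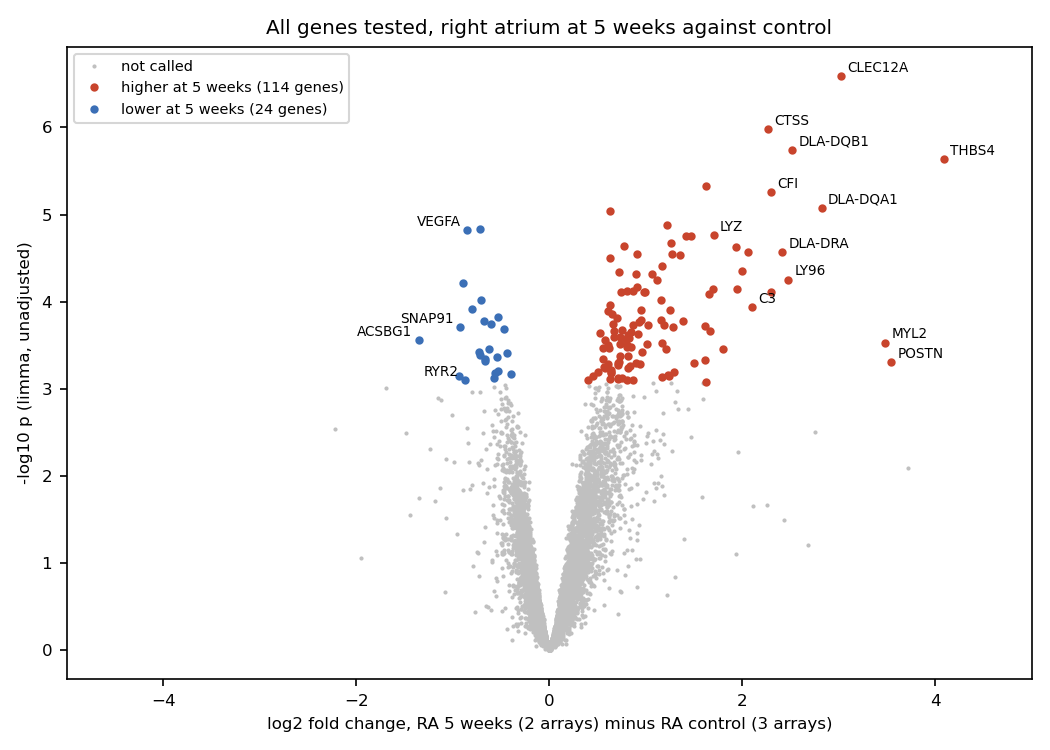
Log2 fold change at 5 weeks against control (horizontal axis, 2 arrays minus 3 arrays) and -log10 of the unadjusted limma p (vertical axis) for the 10988 genes tested. The 114 genes called higher (red) include CLEC12A, THBS4 and DLA-DQA1, and the 24 called lower (blue) include VEGFA, SNAP91 and ACSBG1.

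Genes that present antigen on class II molecules rose together. Of 20 genes tested in the list of antigen presentation, 7 rose, 0 fell and 13 did not pass, beside 1.04% of all genes called higher. The median log2 difference of the list was 0.55, beside -0.02 over all genes. DLA-DQA1, a class II alpha chain, had signals of 7.14, 6.62 and 6.59 in controls and 10.18 and 9.03 at 5 weeks. It was 7.07-fold higher, a log2 difference of 2.82 (SE 0.44, adjusted p = 0.0126). DLA-DQB1, the beta chain that pairs with it, had 6.60, 6.15 and 5.77 in controls and 9.07 and 8.31 at 5 weeks (2.52, SE 0.35, adjusted p = 0.0077). Both chains lay more than 1 log2 unit above the highest control on each of the 2 arrays, and replicate 3 lay below every control for both, at 6.34 and 5.76.

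The class II alpha chain DLA-DRA, a partner for the DR beta chain, had 9.11, 8.55 and 8.17 in controls and 11.38 and 10.67 at 5 weeks (2.42, SE 0.42, adjusted p = 0.0151). The probe set that the platform annotation gives the human symbol HLA-DRB1, a DR beta chain, had 9.19, 8.67 and 8.70 against 11.05 and 10.53 (1.94, SE 0.33, adjusted p = 0.0151). DLA-DMA, part of the molecule that loads peptides onto class II, had 6.20, 5.93 and 5.74 against 7.86 and 7.29 (1.62, SE 0.24, adjusted p = 0.00934). For these genes too, no 5-week array of the main pair overlapped a control, as in every called gene. Cathepsin S (CTSS), the lysosomal protease that trims the class II invariant chain, had 9.09, 8.98 and 9.11 in controls, 11.67 and 10.98 at 5 weeks and 8.88 in replicate 3 (2.27, SE 0.30, adjusted p = 0.00659). PSMB9, an interferon-induced subunit of the immunoproteasome that makes peptides for class I molecules, had the smallest rise of the 7, from 7.33, 7.38 and 7.52 to 8.20 and 8.10 (0.74, SE 0.14, adjusted p = 0.0209). The class II genes are close relatives, and whether their probe sets detect each other's transcripts was not tested. Leaving out each control gave 6, 6 and 4 called members of the list, and leaving out 5-week replicate 1 or 2 gave 0 and 11. Adding replicate 3 gave 0.

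Markers of macrophages and myeloid cells rose beside them. Of 22 markers tested, 8 rose, 0 fell and 14 did not pass, beside 1.04% of all genes called higher. Of the 22 differences 21 were positive, beside 4954 of 10988 over all genes, with a median of 0.49. The mean signal over the whole list was 7.0 to 7.11 in controls, 8.16 and 7.64 at 5 weeks and 7.01 in replicate 3. Their part in the rise of the antigen presentation and complement genes was not tested, and CTSS and C1QC stand in those lists as well. CLEC12A, a C-type lectin receptor of myeloid cells outside the fixed list, had the smallest p of all genes. Its signals were 5.64, 5.67 and 5.78 in controls, 9.01 and 8.42 at 5 weeks and 5.39 in replicate 3. It was 8.10-fold higher (log2 difference 3.02, SE 0.36, adjusted p = 0.00246), and the gap between the groups was many times the spread of the controls.

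Lysozyme (LYZ), an antibacterial enzyme of macrophages, had 9.24, 8.76 and 9.32 in controls and 11.23 and 10.39 at 5 weeks (1.70, SE 0.28, adjusted p = 0.0147). CD86, which costimulates T cells, had 6.91, 6.69 and 6.48 against 8.38 and 7.72 (1.36, SE 0.24, adjusted p = 0.0151). TYROBP, a signalling adaptor of myeloid receptors, had 6.68, 6.73 and 6.71 against 9.02 and 7.78 (1.69, SE 0.32, adjusted p = 0.0209). In these 3 genes replicate 1 was the higher of the pair. Replicate 2 still lay above every control, as in every gene called higher. The other called markers were the Fc receptor FCGR1A (1.65), the oxidase subunit CYBB (1.80), the complement subunit C1QC (1.5) and AIF1, a calcium-binding protein of macrophages (1.63, SE 0.40), which passed narrowly at an adjusted p of 0.05. Outside the list, LCP1, an actin-bundling protein of leukocytes, rose by 1.94 (SE 0.37, adjusted p = 0.0209).

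LY96, the partner of a receptor for bacterial lipopolysaccharide, had 4.46, 4.93 and 5.03 in controls, which lies near background, and 8.39 and 6.17 at 5 weeks (at least 2.47, SE 0.46, adjusted p = 0.0199). BPI, an antibacterial protein of neutrophil granules, had 6.33, 6.54 and 6.67 against 8.95 and 8.20 (2.06, SE 0.36, adjusted p = 0.0151). It was the called gene among 6 neutrophil markers, beside 1.04% of all genes called higher. Of these 6 markers 3 had positive differences, and the list's median was 0.005. Of 9 markers of T and natural killer cells, 6 of B and plasma cells and 7 of mast cells, 0 were called in the limma fit, with medians of -0.03, -0.03 and 0.08. Mean signal over the T and natural killer cell list was 6.38 to 6.52 in controls and 6.32 and 6.49 at 5 weeks. Without controls 1, 2 and 3 the myeloid list had 3, 4 and 2 called members, and without 5-week replicate 1 or 2 it had 0 and 10. Adding replicate 3 gave 0, and a fit of the groups compared alone gave 1.

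Complement genes were higher as well. Of 20 components and regulators tested, 5 rose, 0 fell and 15 did not pass, beside 1.04% of all genes called higher. The median of the list was 0.41. CFI, the protease that inactivates C3b and C4b, had 6.90, 6.87 and 7.06 in controls, 10.06 and 8.41 at 5 weeks and 6.79 in replicate 3 (2.29, SE 0.35, adjusted p = 0.00936). C3, the central component, had 5.35, 6.26 and 5.59 in controls, 8.07 and 7.60 at 5 weeks and 4.42 in replicate 3 (2.10, SE 0.42, adjusted p = 0.0237). Both genes lay above every control on both arrays, as did every gene called higher. The proteases of the first component, C1S and C1R, rose by 1.67 (SE 0.35, adjusted p = 0.0293) and 1.29 (SE 0.31, adjusted p = 0.0449). Without controls 1, 2 and 3 the list had 1, 2 and 1 called members, and without 5-week replicate 1 or 2 it had 0 and 10. Adding replicate 3 gave 0.

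Among 30 cytokine and chemokine genes, 2 rose, beside 1.04% of all genes called higher. CCL2, which attracts monocytes, had 6.59, 6.51 and 6.66 in controls and 9.35 and 7.82 at 5 weeks (2.00, SE 0.36, adjusted p = 0.0177). CXCL16, a chemokine that also binds oxidised lipid, rose by 0.82 (SE 0.17, adjusted p = 0.0306). The chemokine CCL23 missed the threshold at 1.59 (SE 0.39, adjusted p = 0.0505), as did the alarmin IL33 at 1.47 (SE 0.43, adjusted p = 0.0846). Of 24 interferon response genes, 2 rose, PSMB9 and the antiviral gene SAMD9L, which had 6.40, 6.16 and 6.78 in controls and 7.60 and 7.62 at 5 weeks (1.16, SE 0.21, adjusted p = 0.017). The 2 arrays were alike in SAMD9L. The list's median of 0.25 lay above that of all genes.

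**Figure D3:**
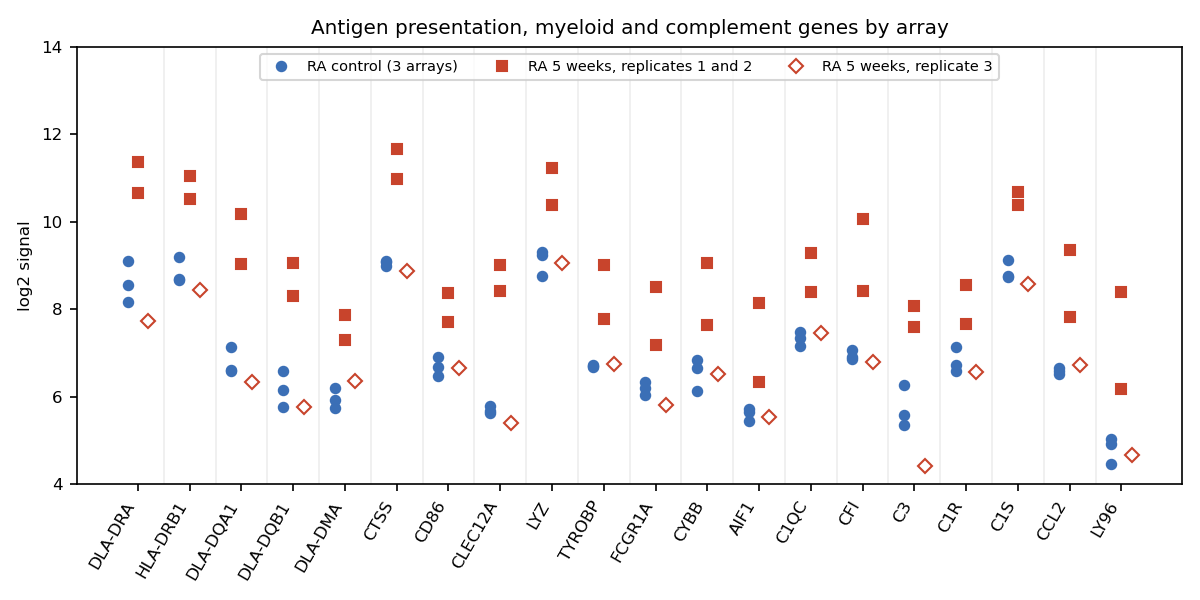
Log2 signal of 20 antigen presentation, myeloid, complement and chemokine genes (horizontal axis) on each RA control and RA 5-week array, 1 point per array. Replicates 1 and 2 at 5 weeks lie above all 3 controls for each gene shown, as for every gene called higher. Replicate 3 (open diamonds) lies near or below the controls.

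Genes of the extracellular matrix were higher in a part of their lists. Of 30 matricellular and elastic matrix genes 2 rose, and of 10 small leucine-rich proteoglycans 3 rose, beside 1.04% of all genes. Of 16 collagen genes 0 passed in the limma fit, with 0 lower in any of these lists. The medians were 0.45, 0.69 and 0.39. The difference of POSTN is treated as a lower bound. THBS4 (thrombospondin 4), a matricellular protein of stretched muscle and tendon, had the largest fitted difference of the called genes. Its signals were 5.76, 5.55 and 5.46 in controls, 11.04 and 8.31 at 5 weeks and 5.96 in replicate 3. The 16.97-fold rise (log2 difference 4.09, SE 0.57, adjusted p = 0.00813) was the mean of 2 arrays that themselves differed by more than 2 log2 units. POSTN (periostin), a matricellular protein of activated fibroblasts, had 3.97, 4.15 and 4.48 in controls, near background, and 9.68 and 5.80 at 5 weeks. Its rise of at least 3.54 (SE 0.82, adjusted p = 0.0411) came to 1.60 with replicate 2 alone and 5.48 with replicate 1 alone.

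The called proteoglycans organise collagen fibrils. Keratocan (KERA) had 8.71, 9.04 and 8.83 in controls and 10.37 and 9.78 at 5 weeks (1.22, SE 0.20, adjusted p = 0.0142). Osteoglycin (OGN) rose by 1.21 (SE 0.27, adjusted p = 0.0355) and asporin (ASPN) by 0.81 (SE 0.20, adjusted p = 0.0488). Epiphycan (EPYC), a related proteoglycan outside the fixed list, had 6.90, 7.08 and 7.72 in controls, 10.27 and 8.79 at 5 weeks and 4.5 in replicate 3 (2.30, SE 0.44, adjusted p = 0.0209). Lumican (LUM) did not pass at 0.67 (SE 0.21, adjusted p = 0.104). Cathepsin K (CTSK), a protease that cleaves collagen, had 8.92, 8.83 and 8.80 in controls and 10.26 and 9.92 at 5 weeks (1.24, SE 0.30, adjusted p = 0.0475). With CTSS it made 2 called genes of 19 matrix proteases and inhibitors, beside 1.04% of all genes called higher. The inhibitor TIMP1 did not pass (1.07, SE 0.33, adjusted p = 0.103).

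The fibrillar collagens differed between the 2 arrays. COL1A1, an alpha chain of type I collagen, had 9.81, 8.87 and 9.64 in controls and 11.99 and 10.06 at 5 weeks (1.59, SE 0.60, adjusted p = 0.168). COL1A2, the other chain of type I, had 10.08, 9.86 and 9.82 against 11.93 and 10.46 (1.28, SE 0.39, adjusted p = 0.0996). COL3A1, the type III chain, had 11.16, 10.69 and 11.08 against 12.71 and 11.42 (1.09, SE 0.39, adjusted p = 0.144). Both arrays lay above every control in the 3 genes, and replicate 2 lay close to the controls. Fibronectin (FN1), an adhesive matrix protein, had 10.39, 9.94 and 10.27 against 11.90 and 10.51 (1.00, SE 0.37, adjusted p = 0.158). One or more other probe sets of COL1A2, COL3A1 and FN1 had the opposite sign. Mean signal over the collagen list was 7.55 to 7.81 in controls, and 8.45 and 7.86 in 5-week replicates 1 and 2. Over the matricellular list it was 7.98 to 8.12 in controls, and 9.17 and 8.34 at 5 weeks. Without controls 1, 2 and 3 the proteoglycan list had 0, 1 and 2 called members and the matricellular list 1 each time.

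Of 20 fibroblast markers, 2 rose (OGN and POSTN), beside 1.04% of all genes, and 18 did not pass. Both lost their call without 5-week replicate 1 and when any single control was left out. Of the 20 differences 19 were positive, beside 4954 of 10988 over all genes, with a median of 0.59. The part of these markers in the values of the matrix genes was not tested. The mean signal over the list was 8.65 to 8.76 in controls, 9.92 and 9.10 at 5 weeks and 8.28 in replicate 3. TGFBR2, the type II receptor for transforming growth factor beta, had 9.39, 9.40 and 9.40 in controls and 10.38 and 10.15 at 5 weeks (0.87, SE 0.17, adjusted p = 0.0209). It was the called gene among 27 of that signalling family, beside 1.04% of all genes. TGFBR2 lost its call when any single control was left out. The ligand TGFB1 had 7.01, 7.0 and 6.93 against 7.17 and 7.0 (0.11, SE 0.10, adjusted p = 0.589), and these values overlapped. CCN2, a matricellular target of the pathway, had 9.32, 8.77 and 11.54 against 11.77 and 10.42 (1.22, SE 0.97, adjusted p = 0.523) and overlapped as well.

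Genes of the contractile apparatus and of the stress response changed in single members. MYL2 rose 11.2-fold in replicates 1 and 2 (log2 difference 3.48, SE 0.76, adjusted p = 0.0336), over controls that spanned more than 3 log2 units. Replicate 3 was set aside partly by its MYL2 and MYL3 levels, so the tests of these genes are not independent of that choice. With replicate 3 added to the limma fit, the MYL2 difference was 4.61 (adjusted p = 0.0607). MYL3 did not pass (1.19, SE 0.44, adjusted p = 0.164). Skeletal alpha-actin (ACTA1), a gene of the fetal programme that returns in overloaded myocardium, had 12.91, 12.64 and 13.52 in controls, 14.07 and 13.79 at 5 weeks and 14.20 in replicate 3. It was 1.87-fold higher in replicates 1 and 2 (0.91, SE 0.17, adjusted p = 0.0209). The RV controls read 14.02 to 14.15, so the signal of replicate 3 is also that of a healthy RV. ACTA1 lost its call without control 1 or 5-week replicate 1. MYOZ2, a protein of the Z-disc, rose by 0.40 (SE 0.10, adjusted p = 0.0488). Its signals were 12.41, 12.27 and 12.28 in RA controls, 12.80 and 12.64 at 5 weeks and 12.87 to 12.95 in RV controls. MYL2 and MYOZ2 were the called genes of 45 sarcomere genes and of 14 ventricular markers, beside 1.04% of all genes called higher. The medians of these lists were -0.07 and 0.01. MYL2 kept its call without 5-week replicate 2 (3.68, adjusted p = 0.0257) and without control 3, the control with the highest signal, and lost it without control 1, control 2 or 5-week replicate 1.

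NPPB, which encodes the B-type natriuretic peptide released on stretch, had 8.59, 11.21 and 12.38 in controls and 12.86 and 12.47 at 5 weeks. Its log2 difference of 1.94 (SE 1.03, adjusted p = 0.319) did not pass, and the controls spanned almost 4 log2 units. Replicate 3 had 7.14. ANKRD1, a stretch-responsive protein of the sarcomere, had 12.77, 12.96 and 13.46 against 13.82 and 13.63 (0.66, SE 0.28, adjusted p = 0.221). None of 14 atrial markers was called in the limma fit (median -0.15), with PAM, which amidates peptides, at -0.42 (SE 0.20, adjusted p = 0.268), CRYM at -0.74 (SE 0.39, adjusted p = 0.314) and GJA5 at 0.07 (SE 0.19, adjusted p = 0.876). Mean signal over the atrial list was 9.37 to 9.47 in controls, 9.30 and 9.40 at 5 weeks and 8.13 in replicate 3.

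Among genes of calcium handling, RYR2, the calcium release channel of the sarcoplasmic reticulum, was the called gene of 31, beside 1.26% of all genes. Its signals were 12.38, 12.31 and 12.19 in controls, 10.92 and 11.91 at 5 weeks and 12.34 in replicate 3. It fell 1.84-fold (log2 difference -0.88, SE 0.21, adjusted p = 0.0491), by -0.38 with replicate 2 alone and -1.37 with replicate 1 alone. The call ended when any single control was left out and when replicate 3 was added. The calcium pump ATP2A2 had 13.53, 13.46 and 13.47 against 12.77 and 13.47 (-0.37, SE 0.16, adjusted p = 0.231), so replicate 1 was low and replicate 2 lay within the controls. The exchanger SLC8A1 was at -0.44 (SE 0.13, adjusted p = 0.0899), the pump inhibitor phospholamban (PLN) at -0.06 (SE 0.14, adjusted p = 0.848), the L-type channel CACNA1C at -0.24 (SE 0.13, adjusted p = 0.329) and the kinase CAMK2D at 0.39 (SE 0.24, adjusted p = 0.386). Of 17 myocyte markers shared by the chambers, RYR2 was again the called gene, and their mean signal was 11.92 to 11.96 in controls, 11.66 and 11.95 at 5 weeks and 12.10 in replicate 3.

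Of 21 potassium channel genes and of 19 genes of other channels and pumps, 1 each was called, beside 1.26% of all genes. KCNIP2, the accessory subunit of the transient outward potassium current, had 11.04, 10.71 and 10.44 in controls and 8.88 and 10.21 at 5 weeks, with 10.47 in replicate 3 (-1.19, SE 0.46, adjusted p = 0.174). Both arrays lay below the controls, and replicate 1 supplied most of the difference. The pore subunit of that current, KCND3, was at -0.24 (SE 0.17, adjusted p = 0.444). The delayed rectifier genes KCNA5, KCNQ1 and KCNH2 were at 0.12, -0.11 and -0.10, and the gap junction gene GJA1 at -0.11, each with an SE of 0.12. The called potassium channel gene was ABCC9, the sulphonylurea receptor of ATP-sensitive channels in vessels and muscle. It had 6.68, 6.89 and 6.48 in RA controls, 7.75 and 7.13 at 5 weeks and 7.12 to 7.27 in RV controls (0.76, SE 0.16, adjusted p = 0.0289). Its other probe set went the other way, at -0.14. CLIC2, an intracellular chloride channel protein, was the other called gene, with 7.53, 7.09 and 7.10 in controls and 9.08 and 7.90 at 5 weeks (1.25, SE 0.25, adjusted p = 0.0242). The genes KCNJ2, KCNJ3, KCNJ5, KCNN2, KCNN3 and HCN4 lay below the signal filter, and NPPA and SLN had no probe set carrying that symbol alone.

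**Figure D4:**
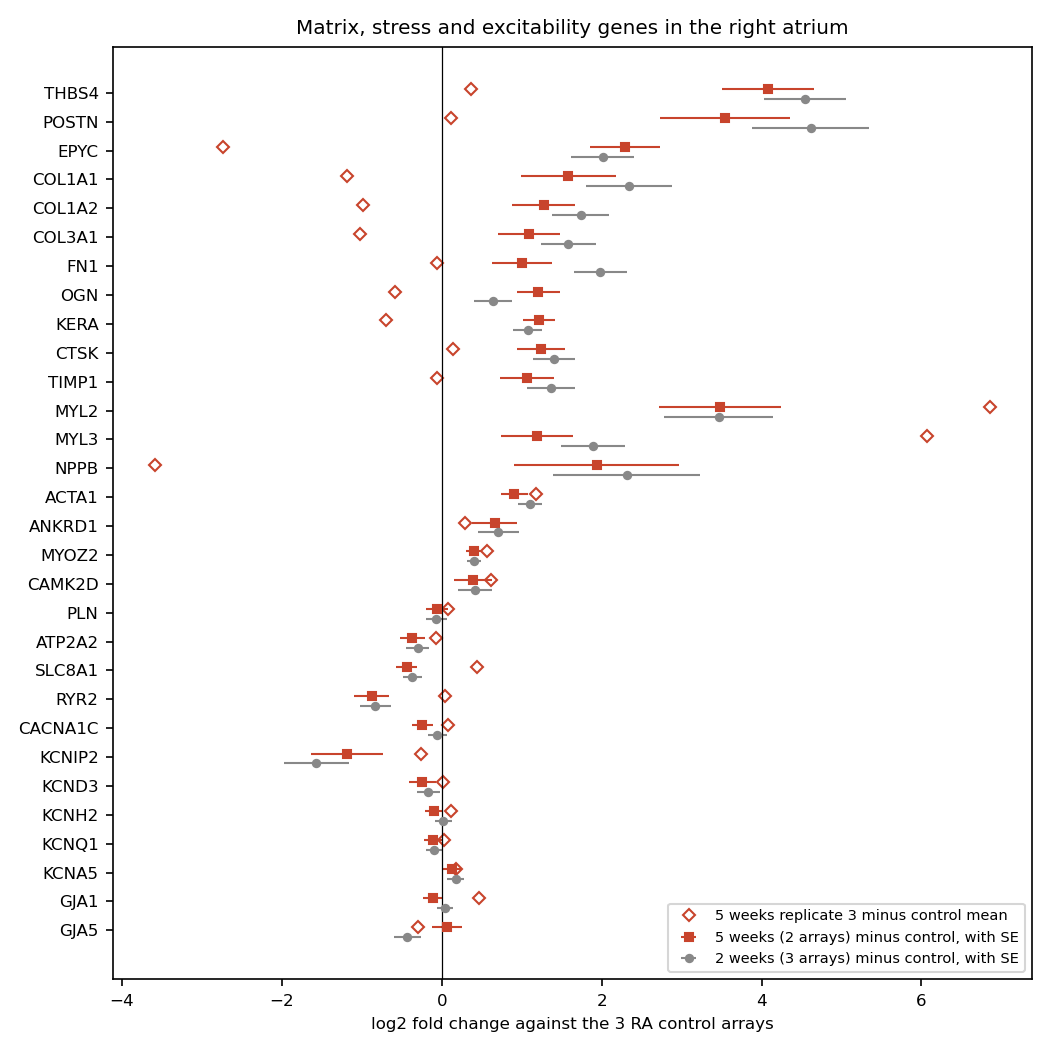
Log2 fold change against the 3 RA controls (horizontal axis) for 30 matrix, stress and excitability genes, at 5 weeks from 2 arrays (squares, SE bars) and at 2 weeks from 3 arrays (circles, SE bars), with 5-week replicate 3 minus the control mean as open diamonds. THBS4, POSTN and MYL2 lie farthest to the right at 5 weeks, and KCNIP2 and RYR2 lie farthest to the left.

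Metabolic genes changed in few members. In the citric acid cycle and its aspartate shuttle, 2 of 26 genes fell, beside 0.218% of all genes called lower. Fumarate hydratase (FH) had 10.58, 10.61 and 10.42 in controls and 9.65 and 10.09 at 5 weeks (-0.67, SE 0.15, adjusted p = 0.0396). The aspartate aminotransferase GOT1 had 12.57, 12.67 and 12.68 against 11.87 and 12.35 (-0.53, SE 0.13, adjusted p = 0.0447). Both arrays lay below the controls in both genes, as in every gene called lower, and the list's median was -0.16. Of 38 complex I genes the assembly factor NDUFAF4 rose (0.93, SE 0.19, adjusted p = 0.0273), beside 1.04% of all genes called higher. The list's median was -0.10. None of 33 genes of complexes II to V and none of 39 genes of glycolysis were called by limma, with medians of -0.12 and -0.15.

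The fatty acid transporter CD36 had 9.46, 9.43 and 9.27 in controls, 10.15 and 10.47 at 5 weeks, 10.34 in replicate 3 and 10.18 to 10.59 in RV controls (0.92, SE 0.20, adjusted p = 0.0306). It was among the 5 genes called higher in which replicate 1 did not lie above replicate 2, and it lost its call without replicate 2 (0.76, adjusted p = 0.0551). The mitochondrial carrier UCP2 had 6.91, 6.41 and 6.65 against 7.49 and 7.46 (0.82, SE 0.19, adjusted p = 0.0384). CD36 and UCP2 were the called genes of 44 in fatty acid uptake and oxidation, beside 1.04% of all genes called higher. UCP1, the uncoupling protein of brown fat, fell from 6.54, 6.54 and 6.51 to 5.75 and 5.89, with 5.84 in replicate 3 (-0.71, SE 0.14, adjusted p = 0.022). ACSBG1, an acyl-CoA synthetase, fell 2.56-fold, from 9.73, 8.87 and 8.17 to 7.59 and 7.55 (-1.35, SE 0.29, adjusted p = 0.032). Among 22 adipocyte markers CD36 rose and UCP1 fell, beside 1.04% of all genes called higher and 0.218% called lower. Mean signal of that list was 7.60 to 7.96 in controls, 7.23 and 7.64 at 5 weeks and 7.06 in replicate 3, and its part in the fall of UCP1 and ACSBG1 was not tested.

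VEGFA fell, and single markers of pericytes and endothelium rose. VEGFA, the endothelial growth factor, had 9.86, 9.64 and 9.70 in controls and 8.80 and 8.97 at 5 weeks, with 9.65 in replicate 3 (-0.85, SE 0.14, adjusted p = 0.0143). The 2 arrays were alike in VEGFA and lay clearly below the controls. VEGFA was the called gene of 37 in the list of insulin and growth factor signalling, beside 1.26% of all genes. RGS5, a regulator of G protein signalling in pericytes, rose from 6.41, 6.48 and 6.30 to 7.95 and 7.08 (1.12, SE 0.21, adjusted p = 0.02), and endomucin (EMCN), a surface protein of capillary and venous endothelium, rose by 0.95 (SE 0.19, adjusted p = 0.0242). EMCN was the called gene of 18 endothelial markers, and RGS5 and ABCC9 were those of 15 smooth muscle and pericyte markers, beside 1.04% of all genes. The medians of these lists were 0.11 and 0.17, with 11 and 9 positive differences, beside 4954 of 10988 over all genes. Other members went down without passing. The endothelial marker TEK was at -0.505 (SE 0.15, adjusted p = 0.0813) and the smooth muscle marker SMTN at -0.69 (SE 0.20, adjusted p = 0.0813).

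Other named genes were lower as well. PAAF1, a chaperone of proteasome assembly, had 7.39, 7.29 and 7.49 in controls, 6.59 and 6.76 at 5 weeks and 6.55 in replicate 3 (-0.72, SE 0.12, adjusted p = 0.0143). RAB9B, a small GTPase, had 6.80, 6.98 and 7.08 against 6.26 and 5.85, with 5.00 in replicate 3 (-0.90, SE 0.17, adjusted p = 0.0205). Both genes were low in the healthy RV too, at 6.63 to 6.70 for PAAF1 and 5.15 to 5.34 for RAB9B, so the low signals of the ventricle-like replicate 3 say nothing of pacing. PAAF1 lost its call without control 1 or 5-week replicate 1, and RAB9B without these or control 3. The carbonic anhydrase CA14 fell by 0.80 on the log2 scale, the splicing regulator RBFOX1 by 0.68, the endocytic adaptor SNAP91 by 0.93, the calcium-sensing receptor CASR by 0.63, the adhesion scaffold NEDD9 by 0.73, the RNA-binding protein STRBP by 0.72, the transcription factor IKZF2 by 0.67 and the smoothelin-like gene SMTNL2 by 0.94. As in every gene called lower, both 5-week arrays lay below every control in all of these, a state found in 15.6% of all genes tested.

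Of the 54 lists examined, 30 held at least 1 called gene and 24 held none. Cytosolic ribosomal proteins, with 0 of 50 called in limma, had 45 positive differences, beside 4954 of 10988 over all genes. Their median was 0.21. Mean signal was 11.62 to 11.76 in controls and 12.02 and 11.73 at 5 weeks, where replicate 2 lay inside the control range. Mitochondrial ribosomal proteins (0 of 68, median 0.08), proteasome genes (0 of 36, 0.17), chaperones (0 of 38, 0.15), cardiac transcription factors (0 of 31, -0.06) and genes of the intercalated disc (0 of 28, -0.06) had no call. Mean signal of the mitochondrial ribosomal list was 8.62 to 8.73 in controls, and 8.90 and 8.68 in 5-week replicates 1 and 2. That of the proteasome list was 9.30 to 9.43 in controls, and 9.65 and 9.44 at 5 weeks.

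**Figure D5:**
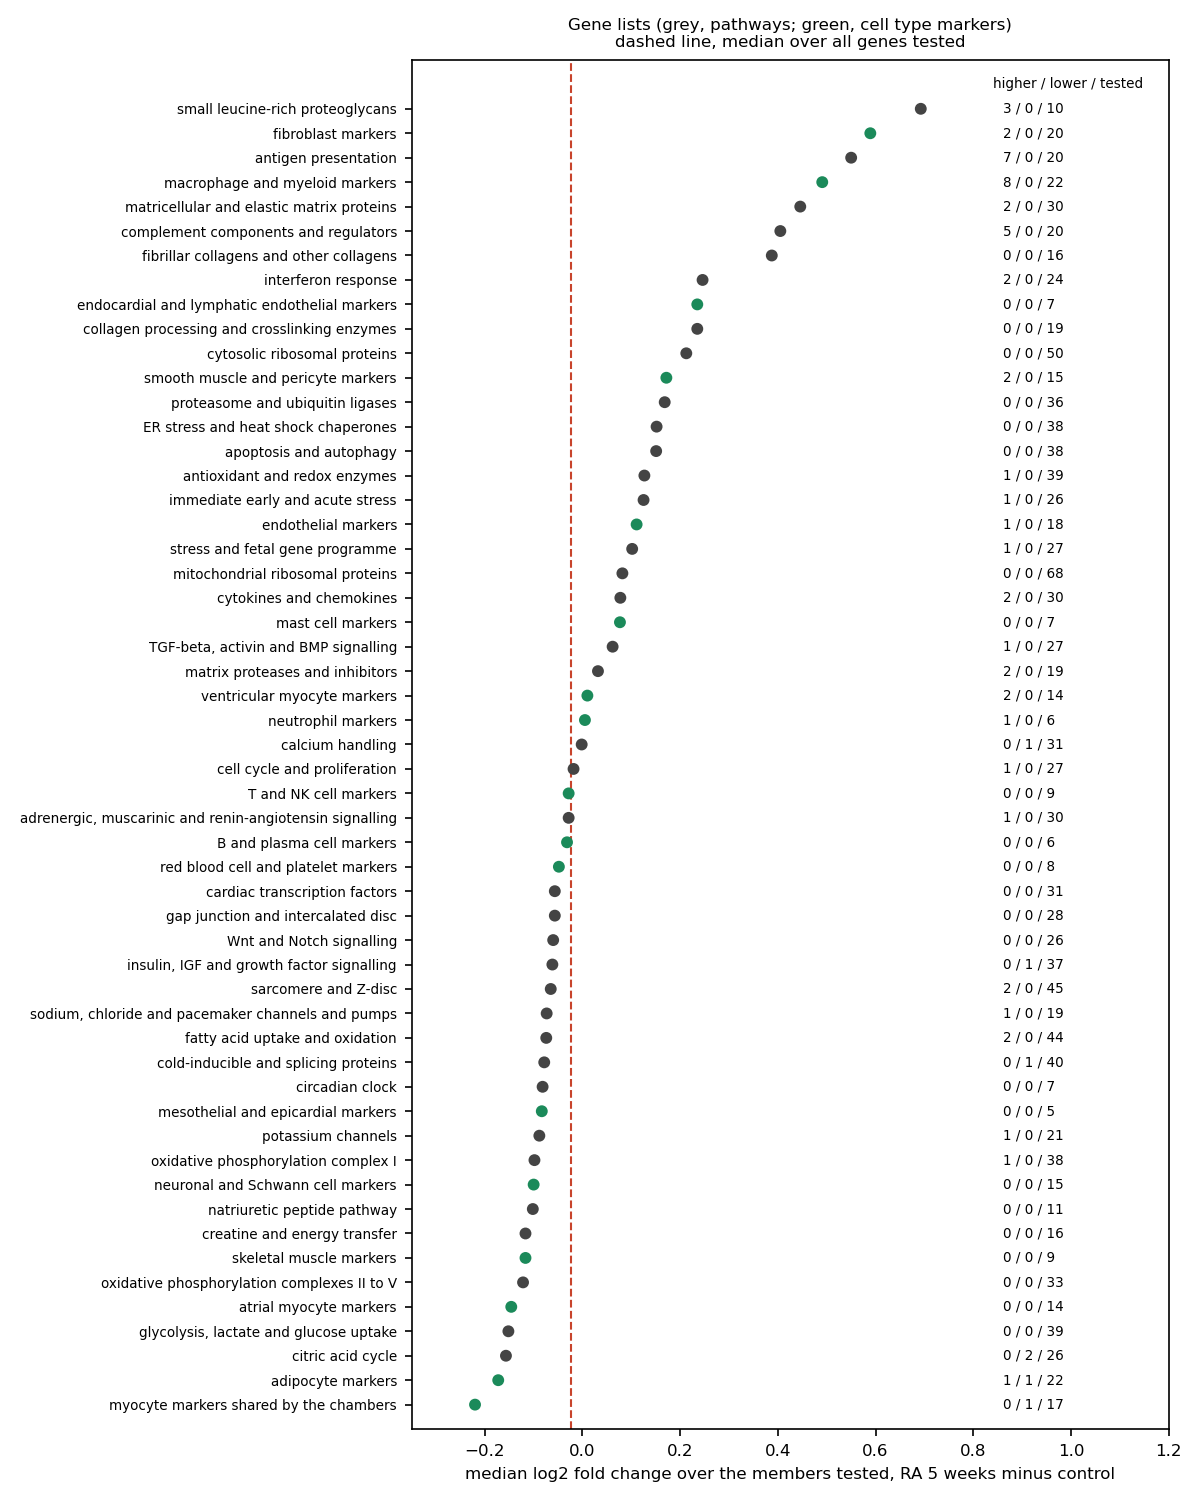
Median log2 fold change over the members tested (horizontal axis) for the 54 gene lists, pathways in grey and cell type markers in green, with the numbers called higher, called lower and tested at the right. Proteoglycans, fibroblast markers, antigen presentation and myeloid markers lie farthest to the right of the dashed line, the median of all genes at -0.02.

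The 5-week arrays were also set against the RA at 2 weeks of pacing and against the RV at 5 weeks. The RA comparisons share their controls, so values are given side by side. Against control, limma called 179 genes higher (1.63%) and 151 lower (1.37%) in the RA at 2 weeks, and 13 higher (0.118%) and 4 lower (0.0364%) in the RV at 5 weeks. THBS4 was higher by 4.54 in the RA at 2 weeks and 1.87 (adjusted p = 0.147) in the RV at 5 weeks, beside 4.09 in the RA at 5 weeks. DLA-DRA stood at 2.37 and 0.62 (adjusted p = 0.539) beside 2.42. CTSS stood at 2.12 and 1.59 (adjusted p = 0.0267) beside 2.27, and FN1 at 1.98 and 1.71 (adjusted p = 0.0542) beside 1.00.

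Tested directly, 0 of 10988 genes differed between the RA at 5 and at 2 weeks in limma (0%), with 937 at an unadjusted p under 0.05. The smallest p belonged to EDNRA, an endothelin receptor, with 8.28 and 8.49 at 5 weeks, 7.67, 7.55 and 7.32 at 2 weeks and 8.32, 8.45 and 8.27 in controls (0.87, SE 0.14, adjusted p = 0.242). TOP2A, a topoisomerase of dividing cells, had 5.13 and 4.98 at 5 weeks and 6.39, 5.83 and 7.01 at 2 weeks (-1.36, SE 0.25, adjusted p = 0.267), with controls at 5.00, 4.76 and 5.10. In both genes the 5-week arrays lay beside the controls and apart from the 2-week arrays, though neither passed. Both were named for a small p in this test, so their distance from the 2-week arrays follows from that choice. For TOP2A the 5-week and control signals lay under the signal filter limit of 5.31, so their likeness says little. Without 5-week replicate 2 the direct test called 4 genes.

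The difference between the chambers in the 5-week effect was tested as an interaction, and 0 of 10988 genes passed in limma (0%), with 755 at an unadjusted p under 0.05. DLA-DMA differed by 1.62 from control in the RA and by -0.08 in the RV, a difference of 1.70 (SE 0.32, adjusted p = 0.327). HLA-DRB1 stood at 1.94 and -0.04, a difference of 1.98 (SE 0.44, adjusted p = 0.394). CRYM, a thyroid hormone binding protein abundant in atrium, stood at -0.74 and 1.80, a difference of -2.54 (SE 0.52, adjusted p = 0.327). These differences exceeded several standard errors and did not pass after adjustment. The RV arrays at 5 weeks were not uniform in chamber markers. RV replicate 1 read 12.76 for MYL2, 12.35 for MYL3 and 6.88 for IRX5, below every RV control. CRYM read 7.80, 8.09 and 8.39 in the RV at 5 weeks, and 6.60, 6.19 and 6.09 in RV controls. Without RV replicate 1 at 5 weeks the interaction still called 0 genes, and its part in the single differences was not tested. Without 5-week replicate 2 the interaction called 79 genes, and without control 3 it called 2.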

How the data were processed

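Total RNA was labelled with biotin and hybridised to Affymetrix Canine_2 arrays. The authors deposited log2 signal per probe set. The log base was read from the values, and MAS5 is the tool in the submitters' processing notes, with no version. Array medians lay at 5.65 to 5.75, and no further normalization was applied. Depth has no meaning for arrays: their number limits the precision.

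Of 42924 probe sets without controls, the 40% of lowest mean signal (log2 limit 5.31) were left out, which left 25752. Symbols came from the platform annotation (29254 probe sets with 1 symbol, 439 with several, 13231 with none). The probe set of highest mean signal stood for a gene. Differences against a control mean under the limit were treated as lower bounds, though the limit is a percentile and no floor was measured. limma 3.58.1 in R 4.3.3 fitted 6 group means over 17 arrays, without 5-week RA replicate 3 (11 residual degrees of freedom), with a trended variance prior, two-sided tests and Benjamini-Hochberg adjustment over all probe sets tested. SE is that of the fit, and n is 2 arrays at 5 weeks and 3 in every other group.

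Genes were named by a rule: the called genes of largest change or smallest p in each direction, the leading members of each list, and a fixed set of stress, matrix, channel and calcium handling genes. Where fewer passed, it took the 5 of smallest p in each direction. Members, lists and rule were chosen with earlier results of these data known. The fit was checked on data with known answers. Alternatives were other filters, scalings, variance priors, probe choices, blocks and left-out arrays. No genome sequence was used here.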

Additional observations from a re-analysis of the deposited data

Results flagged for a closer look

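In the comparison of the 5-week effect between the chambers, 2 probe sets without a gene symbol passed the interaction test in limma, and both stand out because the effect differed between RA and RV. Probe set Cfa.10205.1.A1_at had an RA minus RV difference of -1.128 (SE 0.156, adjusted p = 0.024). It read 6.18, 6.36 and 6.59 in RA controls and 5.47 and 5.34 at 5 weeks, a log2 difference of -0.97 (adjusted p = 0.00246), with 5.47 in replicate 3. In the RV it differed by 0.16 (adjusted p = 0.589), from control signals of 5.23 to 5.37. These lie near the signal filter limit of 5.31, which is a percentile of mean signal and not a measured floor. How far the signal could still fall in the RV was not tested. Probe set Cfa.764.1.S1_at had an RA minus RV difference of 2.135 (SE 0.294, adjusted p = 0.024). It was at 0.57 (adjusted p = 0.177) in the RA, from 6.77, 6.98 and 7.16 to 7.59 and 7.48. In the RV it fell by 1.57 on the log2 scale (adjusted p = 0.0114), from 9.54 to 9.72 in controls to 7.70 to 8.53 at 5 weeks.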

How the results depend on the processing

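The main fit called 138 genes at 5 weeks, 114 higher and 24 lower. The counts were 4, 2 and 2 with replicate 3 added, 14, 14 and 0 with the compared groups alone, 20, 18 and 2 with array weights, and 88, 73 and 15 without probe sets suffixed _x_at or _s_at. Genes called lower were 49 after quantile normalization and 14 after median centring. Leaving out each RA array of the main fit in turn gave 0 to 1257 calls, 0 to 941 higher and 0 to 316 lower. Leaving out the suffixed probe sets turned ABCC9 to -0.135, through its other probe set. The direct test of 5 against 2 weeks called 0 genes and 0 to 4 with an array left out, 1 of them without 2-week replicate 2. The chamber interaction called 1 gene with the compared groups alone and 1 with the median over a gene's probe sets, and 0 to 79 with an array left out. Of the 61 named called genes, 3 stayed called with replicate 3 added, 11 with the compared groups alone, 14 with array weights, 47 after median centring, 52 with a robust prior, 56 without a signal filter and 57 after quantile normalization. With the replicate number as a block 181 genes were called. Controls and 5-week arrays share 2 numbers, with correlations of deviations of -0.08 and -0.15. With 2 arrays at 5 weeks their deviations mirror each other, so this cannot settle whether the numbers pair samples, and they were treated as unpaired. Signals near background and the small number of arrays limit what can be called.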
